A study of Mus musculus with 19 samples.

Results

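The genes described here are Pdgfb, Pdgfrb, Pdgfra, Rgs5, Abcc9, Cspg4, Acta2, Tagln and Des, out of 47069 genes in the count tables. These 9 were listed as genes of pericytes and other mural cells and are called mural genes below. Pdgfb is a ligand that endothelial cells secrete and Pdgfra is not a defining pericyte gene, so sums over the 9 need not be of mural RNA alone. The 9 genes were found by matching Ensembl gene identifiers to their symbols in the GRCm38 annotation, and each symbol matched 1 gene. The genes were named as mural markers and were also selected on their values in these same libraries, in which several of them had been seen to differ between the cell populations. Their differences between the populations are therefore given as a description, and no p-value is given for them. How many of them the fit over all genes called is counted beside the share of all genes, and again under other settings of the fit, and nothing is read from it.

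The libraries hold RNA from GFP-positive cells of embryonic mouse retina at E16.5 that were sorted by flow cytometry, in 3 samples from each of 2 crosses. For ipsilateral retinal ganglion cells (iRGCs), whose axons stay on the same side of the brain, Slc6a4-Cre mice were crossed with a line that carries a Cre-dependent Sun1-GFP reporter of the nuclear envelope. For contralateral retinal ganglion cells (cRGCs), whose axons cross the midline, Pou4f2-Cre was used with the same reporter, and the ventrotemporal (VT) part of the retina was cut away before sorting. The 13 ATAC-seq samples were not analysed here. Both groups carried the reporter and are labeled as strain C57/DBA F1, genotype WT, with male and female embryos pooled. Recombination by Cre is permanent, so the reporter also stays on in descendants of a cell in which the driver was once active. Neither the number of embryos behind a library nor whether libraries came from separate litters is stated, so p-values measure the spread between these samples. The libraries held 28193178, 29759011 and 30874653 counts on genes in iRGC replicates 1 to 3 and 28274471, 30454674 and 33638083 in cRGC replicates 1 to 3.

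Mural cells wrap the endothelial tube of blood vessels, as pericytes on capillaries and as smooth muscle cells on larger vessels. Endothelial cells secrete PDGF-B, which recruits and keeps pericytes through their receptor PDGFRβ, and the contractile proteins α-smooth muscle actin, transgelin and desmin let mural cells narrow the vessel. In the mouse embryo the retina itself still lacks its own vessels, and the nearest vessels are the hyaloid vessels of the vitreous and the choroid behind the pigment epithelium.

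The labeled cell types were checked before the mural genes. Levels are given as CPM, counts divided by library size and scaled to a common total, with edgeR's TMM factors. Slc6a4, the serotonin transporter that names the iRGC driver, was at 2.06, 33.4 and 116 CPM in iRGC replicates 1 to 3 and at 48.1, 35.4 and 30.5 CPM in the cRGC replicates. The groups overlapped for this gene, and iRGC replicate 1 lay below every cRGC library. Zic2, the transcription factor of the ipsilateral program, was at 133, 173 and 157 CPM in iRGCs and at 57.0, 60.2 and 65.7 CPM in cRGCs, without overlap. Of 15 RGC markers, 14 were lower in iRGCs by edgeR's quasi-likelihood test at a Benjamini-Hochberg adjusted p-value under 0.1 over all 15941 tested genes, which is the call used throughout. Only Atoh7, a factor of newborn RGCs, was higher. Of 16 retinal progenitor genes, 14 were higher in iRGCs and Six3 was lower, and their summed level was 11121, 9975 and 8902 CPM in iRGCs against 2345, 3533 and 2928 CPM in cRGCs. Over all tested genes, 23.3% were called higher in iRGCs and 23.1% lower.

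iRGC replicate 2 stood apart from its group in the mural genes. The 9 genes together reached 30.6, 179 and 42.5 CPM in iRGC replicates 1 to 3 and 10.8, 11.3 and 11.9 CPM in cRGC replicates 1 to 3. The mural genes summed to a similar level in the 3 cRGC libraries and to a higher and far more variable level in the 3 iRGC libraries. Within the iRGCs, 3 patterns were seen. Rgs5, Abcc9, Pdgfb, Cspg4 and Des lay mainly in replicate 2, Acta2 and Tagln mainly in replicate 3, and Pdgfrb was raised in all 3 libraries, whereas Pdgfra was not raised in any. In a bulk library, fewer cells of a type and less RNA per cell cannot be told apart.

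**Figure D1:**
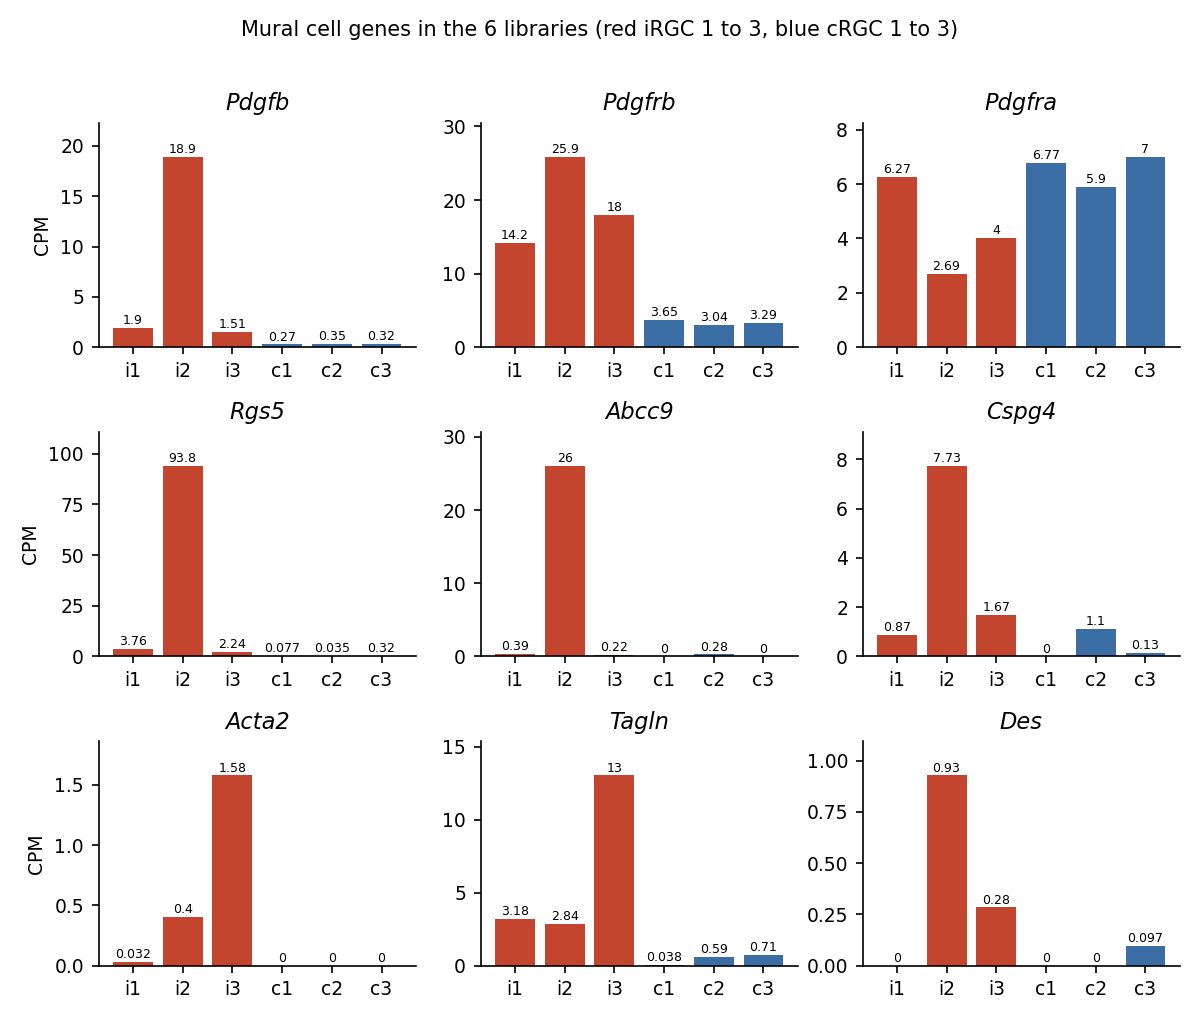
Each panel shows 1 mural cell gene, with its level in CPM (vertical axis, linear, own scale per panel) in iRGC replicates 1 to 3 (red) and cRGC replicates 1 to 3 (blue), 1 bar per library. Rgs5, Abcc9, Pdgfb, Cspg4, Des and Pdgfrb were highest in iRGC replicate 2, Acta2 and Tagln in iRGC replicate 3, and Pdgfra in cRGC replicate 3.

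The sequences shown are those upstream of Rgs5, the member with the highest level in any library (iRGC replicate 2), and of Acta2, whose known regulator was also measured. The RefSeq promoter table for GRCm38.p6 held 6 of the 9 genes. For Rgs5 these are the 250 bases before the RefSeq start on the plus strand, chr1:169655251-169655500, which overlap no annotated exon. The capitals mark overlapping matches to the letters TATANA, searched on both strands, which begin 30 and 32 bases before the start.
Rgs5: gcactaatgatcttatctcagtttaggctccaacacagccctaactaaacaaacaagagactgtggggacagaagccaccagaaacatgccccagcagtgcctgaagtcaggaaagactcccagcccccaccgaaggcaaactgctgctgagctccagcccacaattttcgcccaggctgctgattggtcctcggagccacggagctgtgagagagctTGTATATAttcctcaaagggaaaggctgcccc
Rgs5 was the only member in the table with such a match, and 22.6% of all 32851 promoter windows of the same 250 bases held TATANA.

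For Acta2, on the minus strand, the sequences are the matches to the CArG box, the element to which serum response factor (SRF) is known to bind in promoters of contractile genes. A match was taken as CC, 6 letters of which at most 1 was not A or T, and GG, and it is in capitals with 5 bases on either side. The sites lie at chr19:34255443-34255462 and chr19:34255393-34255412, with the box beginning 84 and 34 bases before the RefSeq start, and both overlap the first exon in the GENCODE annotation.
Acta2 distal: gaggtCCCTATATGGttgtg
Acta2 proximal: ttgctCCTTGTTTGGgaagc
Acta2 was the only member in the table with a match, against 8.59% of all 32851 promoters, and in both of its matches 1 of the 6 letters was not A or T. A match describes the letters and is not evidence of a bound site.

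Pdgfb encodes the ligand, PDGF-B, and lies at chr15:79995874-80014977 on the minus strand. It was measured at 1.90, 18.9 and 1.51 CPM in iRGC replicates 1 to 3 and at 0.269, 0.345 and 0.323 CPM in cRGC replicates 1 to 3. All iRGC libraries lay above all cRGC libraries, but replicate 2 alone held 84.7% of the summed iRGC level. The log2 fold change of iRGCs over cRGCs was 4.55 ± 1.06 (SE, 3 libraries per group), and without iRGC replicate 2 it was 2.43. The cRGC values rest on 7 to 10 counts per library.

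Pdgfrb, the receptor on pericytes through which PDGF-B acts, lies at chr18:61045150-61085061 on the plus strand. Its level was 14.2, 25.9 and 18.0 CPM in iRGC replicates 1 to 3 and 3.65, 3.04 and 3.29 CPM in cRGC replicates 1 to 3. This was the most even of the raised members, with the highest iRGC library only 1.83 times the lowest and no overlap with the cRGCs. Its log2 fold change was 2.54 ± 0.29 (SE) and stayed between 2.27 and 2.72 with each library left out in turn. Replicate 2 was 1.83 times replicate 1 for Pdgfrb, where that ratio was 24.9 for Rgs5.

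Pdgfra, the receptor for PDGF-A on fibroblasts, oligodendrocyte precursors and the astrocytes of the retina, is not a defining pericyte gene. It lies at chr5:75152292-75198215 on the plus strand, and 6.50% of its exonic bases are shared with Gm42802. It was at 6.27, 2.69 and 4.00 CPM in iRGC replicates 1 to 3 and at 6.77, 5.90 and 7.00 CPM in cRGC replicates 1 to 3. The groups overlapped and the lowest value was that of iRGC replicate 2, the library in which Rgs5, Abcc9 and Pdgfb were highest. Its log2 fold change of -0.60 ± 0.39 (SE) kept its sign with each library left out, between -0.97 without iRGC replicate 1 and -0.35 without iRGC replicate 2.

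Rgs5 speeds the shut-off of G-protein signals and is among the most specific pericyte markers. It lies at chr1:169655501-169695813 on the plus strand, and its upstream sequence is printed above. It was measured at 3.76, 93.8 and 2.24 CPM in iRGC replicates 1 to 3 and at 0.077, 0.035 and 0.323 CPM in cRGC replicates 1 to 3. Replicate 2 held 94.0% of the iRGC signal and lay 24.9 times above replicate 1, yet the other iRGC libraries also lay above all cRGC libraries. The cRGC libraries had 2, 1 and 10 counts of it, against 117, 3036 and 71 in the iRGC libraries. The log2 fold change was 7.76 ± 1.72 (SE) and was 4.32 without iRGC replicate 2.

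Abcc9 encodes SUR2, the regulatory subunit of the ATP-sensitive potassium channel of pericytes, and lies at chr6:142587862-142702315 on the minus strand. It had 12, 841 and 7 counts in iRGC replicates 1 to 3 and 0, 8 and 0 counts in cRGC replicates 1 to 3, or 0.386, 26.0 and 0.221 CPM against 0, 0.276 and 0 CPM. Replicate 2 held 97.7% of the iRGC signal, the largest such share among the 9 genes, and of the other iRGC libraries replicate 3 lay within the cRGC range and replicate 1 just above it. Abcc9 was too low in most libraries to pass the filter of the fit. Kcnj8, the pore subunit of the same channel, was at 0, 3.18 and 0.032 CPM in iRGCs and had no count in any cRGC library, so channel pore and regulator were both found mainly in replicate 2.

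Cspg4 encodes the NG2 proteoglycan of the surface of pericytes and oligodendrocyte precursors and lies at chr9:56865033-56899870 on the plus strand. Its level was 0.868, 7.73 and 1.67 CPM in iRGC replicates 1 to 3 and 0, 1.10 and 0.129 CPM in cRGC replicates 1 to 3. It was highest in iRGC replicate 2, with 75.3% of the iRGC signal, and iRGC replicate 1 lay below cRGC replicate 2. The log2 fold change was 3.04 ± 1.41 (SE), and ranged from 1.62 without iRGC replicate 2 to 5.60 without cRGC replicate 2. Of 8 oligodendrocyte precursor genes, Sox10 and Gpr17 had no count in any of the 6 libraries, whereas Olig2 and Ptprz1 were called higher in iRGCs, Ptprz1 at 150, 143 and 144 CPM against 47.6, 71.8 and 64.4 CPM. Lhfpl3 was called lower (log2 fold change -1.33 ± 0.34 SE), and Olig1 and Bcan were not called.

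Of the contractile and cytoskeletal members, Acta2 and Tagln were highest in iRGC replicate 3 and Des in replicate 2. Acta2, α-smooth muscle actin, at chr19:34241090-34255590 on the minus strand, had 1, 13 and 50 counts in iRGC replicates 1 to 3 and none in the 3 cRGC libraries. Replicate 3 held 78.4% of its iRGC level of 0.032, 0.402 and 1.58 CPM. It did not pass the filter of the fit.

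Tagln, transgelin or SM22α, is an actin-binding protein of smooth muscle and lies at chr9:45929619-45936058 on the minus strand. Its level was 3.18, 2.84 and 13.0 CPM in iRGC replicates 1 to 3 and 0.038, 0.587 and 0.710 CPM in cRGC replicates 1 to 3. All iRGC libraries lay above all cRGC libraries, with 68.4% of the iRGC level in replicate 3 and the lowest iRGC value in replicate 2. Its log2 fold change was 3.81 ± 0.98 (SE), and 2.73 without iRGC replicate 3. Of its exonic bases 67.9% overlap Gm48529 on the plus strand, a gene that the count tables do not list, so reads of the pair cannot be told apart if strand was not used in counting.

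Des, the intermediate filament desmin of muscle and mature pericytes, lies at chr1:75360329-75368579 on the plus strand. It had 0, 30 and 9 counts in iRGC replicates 1 to 3 and 0, 0 and 3 counts in cRGC replicates 1 to 3. The groups overlapped at 0. The summed counts gave a ratio of 11.7 with a 95% interval of 3.73 to 59.4 that covers counting error alone. Des did not pass the filter either.

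In all, 6 of the 9 genes passed the filter on low counts and 3 (Abcc9, Acta2 and Des) did not. Of the 6, Pdgfb, Pdgfrb, Rgs5 and Tagln were called higher in iRGCs (4 genes, beside 23.3% of all tested genes), none was called lower, and Pdgfra and Cspg4 were not called. As the genes were chosen on this contrast, nothing is read from that count, which was 3 without iRGC replicate 2 and 6 without iRGC replicate 1, the library with the lowest Slc6a4, where Pdgfra was also called lower. Over all genes, 3281 were called higher without iRGC replicate 2 and 3521 without iRGC replicate 1. In 5 of the 9 genes every iRGC library lay above every cRGC library. This was so for 18.6% of the 24342 genes with a count and for 27.1% of the 15941 tested genes. For Acta2, 1 of the 5, the separation rests on 1 count in iRGC replicate 1.

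**Figure D2:**
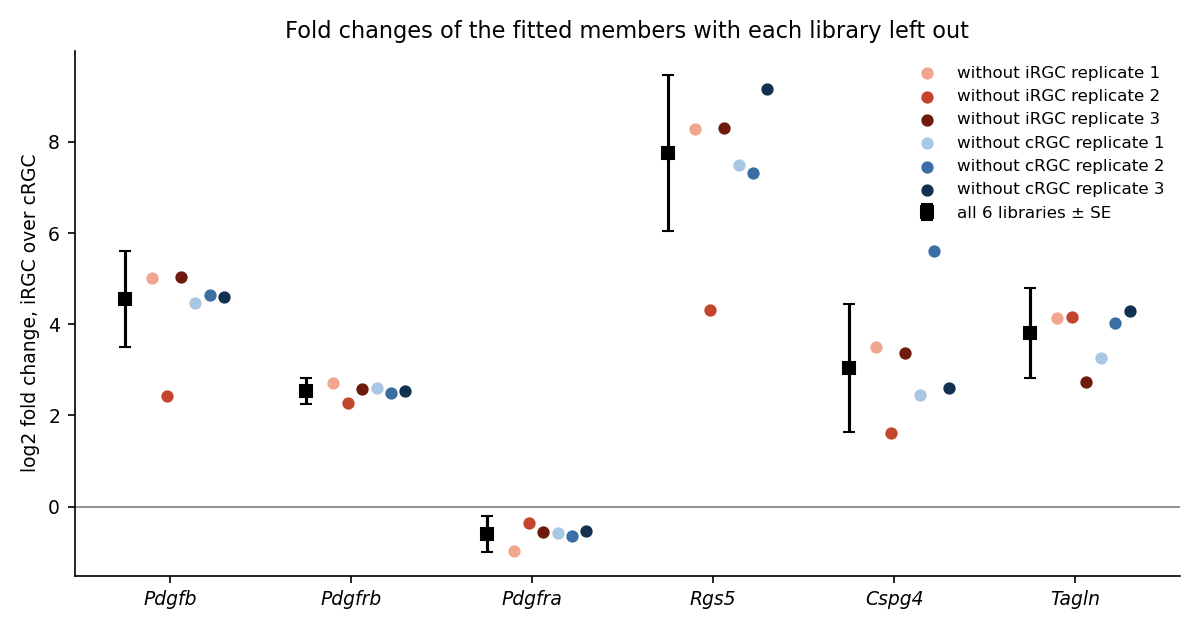
The log2 fold change of iRGCs over cRGCs (vertical axis) is shown for the 6 fitted mural genes, as the estimate from all 6 libraries ± SE (black) and with each library left out (red shades for iRGC, blue shades for cRGC). Without iRGC replicate 2 the estimate dropped to 4.32 for Rgs5 and 2.43 for Pdgfb but only to 2.27 for Pdgfrb.

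The distribution over the iRGC libraries was then compared with that of other genes. For 5 of the 9 members (Rgs5, Abcc9, Pdgfb, Cspg4 and Des) iRGC replicate 2 was at least 3-fold above both other iRGC libraries, as was the case for 9.02% of the 24342 genes with a count. For 2 members, Acta2 and Tagln, replicate 3 stood out in this way, against 10.2% of genes. Of the 9 genes, 6 had their highest value of all libraries in iRGC replicate 2 and 2 in iRGC replicate 3, against 17.8% and 16.6% of genes. The 3-fold limit was chosen after the values were seen, and shares over all genes with a count include many with few counts.

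Per kilobase of exon, which allows levels of different genes to be compared, the make-up of the summed signal of the 9 genes changed from library to library. The 9 genes summed to 6.23, 35.8 and 12.1 CPM per kilobase in iRGC replicates 1 to 3 and to 1.44, 1.65 and 1.84 CPM per kilobase in cRGC replicates 1 to 3. Pdgfrb made up 41.5% of the sum in iRGC replicate 1, Rgs5 57.7% in replicate 2 and Tagln 54.3% in replicate 3. A different gene thus led in each iRGC library. In the cRGC libraries Pdgfra and Pdgfrb made up similar shares of the sum, at 46.8%, 35.6% and 37.9% for Pdgfra and 46.2%, 33.5% and 32.6% for Pdgfrb.

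**Figure D3:**
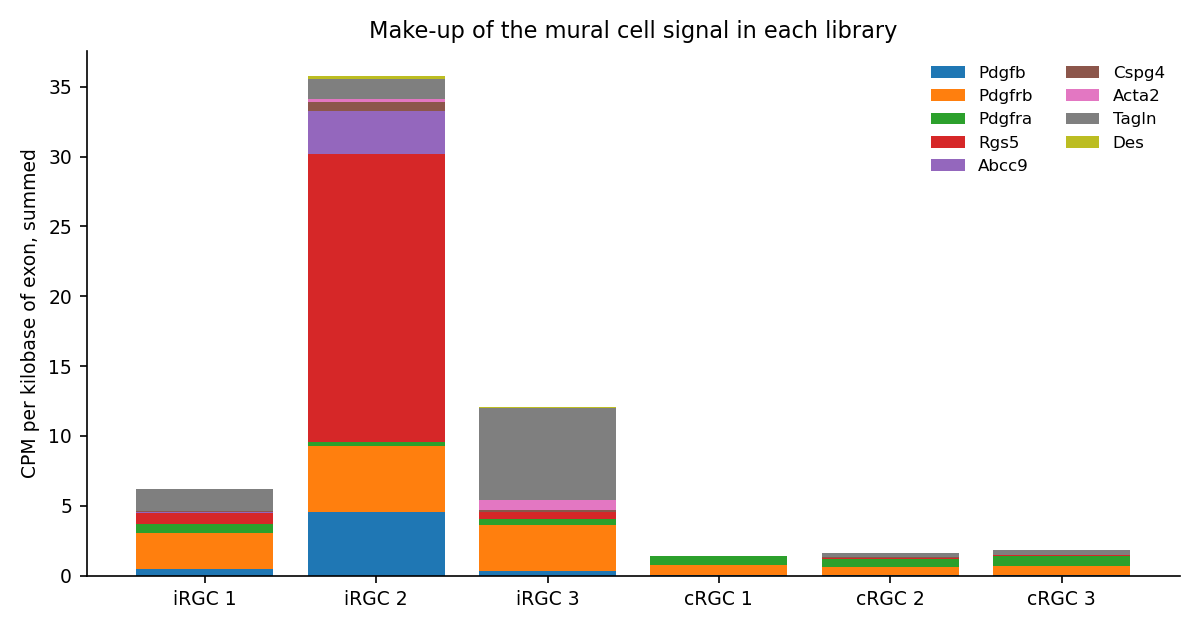
Stacked bars give the CPM per kilobase of exon of the 9 mural cell genes in each library (1 bar per library, colors for genes). The sum was 35.8 in iRGC replicate 2, mostly Rgs5, and 12.1 in iRGC replicate 3, mostly Tagln, against 1.44 to 1.84 in the cRGC libraries.

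Likeness between genes was measured as Pearson's r of log2(CPM + 0.5) over the 6 libraries, which share their depth scaling and the difference between groups, and is given as a description. The closest pair of members was Rgs5 and Pdgfb (r = 0.996), pericyte marker and endothelial ligand. The tested gene closest to Rgs5 was Sox7 (r = 0.998), a transcription factor of endothelial cells, at 1.03, 6.34 and 0.662 CPM in iRGCs and at most 0.032 CPM in cRGCs. Cav1, which encodes the caveolin of endothelial and mural cell membranes, followed (r = 0.994) at 1.64, 14.8 and 0.599 CPM in iRGCs and no count in the cRGC libraries, and then Sh2b3 (r = 0.993). Sox7 and Cav1 were also among the 3 genes closest to Pdgfb (both r above 0.99), with Dkk1, a secreted Wnt antagonist, as the third. The gene closest to Cspg4 was the β-globin gene Hbb-bt (r = 0.997), at 1.64, 16.6 and 2.43 CPM in iRGCs and 0, 1.69 and 0.097 CPM in cRGCs. Abcc9 was closest to Gm43857 (r = 0.998), and of the members to Pdgfb (r = 0.951).

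Pdgfrb had no close partner among the members, with Rgs5 the nearest at r = 0.873, and its closest genes, Gtf2h3, Nelfa and Zfp260 (r of at least 0.998), encode general nuclear proteins of transcription that differed little within either group. Tagln was nearest to Acta2 (r = 0.863) and, outside the members, to Abt1, Cebpz and Rabggtb (r of at least 0.997). Pdgfra was negatively related to every other member, from -0.604 with Tagln to -0.944 with Des, and was closest to Gm13830 (r = 0.995). Acta2 and Des were too low to be compared with all genes.

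Other genes of pericytes were read next, in a list of 22. Of the 13 that passed the filter, 8 were called higher and 1 lower in iRGCs, beside 23.3% and 23.1% of all tested genes. The median log2 fold change of the 13 was 2.28, against 0.00 for all tested genes. A gene that is high only in iRGCs can pass the filter through that group alone, so these counts and medians are no support by themselves. Notch3, the Notch receptor of mural cells, was at 113, 117 and 83.5 CPM in iRGCs and 17.1, 26.7 and 18.6 CPM in cRGCs (log2 fold change 2.33 ± 0.21 SE, adjusted p = 0.000205 in edgeR). Heyl, a transcription factor downstream of Notch, was at 51.4, 46.2 and 49.7 CPM in iRGCs and 7.65, 14.7 and 4.36 CPM in cRGCs (2.46 ± 0.38, edgeR adjusted p = 0.00103). S1pr3, a receptor for sphingosine-1-phosphate, was at 45.6, 49.3 and 51.7 CPM against 6.96, 10.7 and 5.26 CPM (2.67 ± 0.26, edgeR adjusted p = 0.000214). These genes rose to nearly the same level in each iRGC library, the highest being at most 1.41 times the lowest, and so unlike Rgs5 showed no excess in replicate 2.

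Mcam, the adhesion molecule CD146 of vessels, lay between these patterns, at 25.4, 57.9 and 27.8 CPM in iRGCs and 5.23, 4.52 and 1.45 CPM in cRGCs (3.32 ± 0.50, edgeR adjusted p = 0.000976). Ndufa4l2, a mitochondrial protein enriched in pericytes, was instead lowest in iRGC replicate 2, at 39.1, 22.0 and 76.1 CPM against 5.42, 16.8 and 6.03 CPM (2.28 ± 0.54, edgeR adjusted p = 0.00922). Angpt1, the pericyte ligand of the endothelial receptor Tie2, was likewise lowest there, at 16.2, 3.59 and 17.4 CPM against 3.42, 4.18 and 2.42 CPM (1.89 ± 0.55, edgeR adjusted p = 0.0237). For these genes the order of the iRGC libraries was the reverse of that for Rgs5. The gene called lower was Atp13a5, at no more than 1.74 CPM in any library, and its call was kept in only 1 of the 6 fits that left out a library, the one without iRGC replicate 3.

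Other genes of the list had a pattern like that of Rgs5. For 10 of the 22, iRGC replicate 2 was at least 3-fold above both other iRGC libraries, beside 9.02% of the 24342 genes with a count. Among them Foxc1, a transcription factor of mural cell development, was at 0, 9.24 and 0.473 CPM in iRGCs with no count in cRGCs, and Ednra, the endothelin receptor, was at 0, 7.14 and 0.694 CPM against 0, 0.311 and 0 CPM. Foxf2 was at 0.997, 5.19 and 0.284 CPM and Cd248, endosialin, at 0, 10.7 and 1.70 CPM, the latter overlapping the cRGCs at 2.35, 0.449 and 1.26 CPM. Higd1b and Foxs1 had counts in iRGC replicate 2 alone, at 0.247 and 0.649 CPM. Kcnj8, Tbx18, Gja4 and P2ry14 complete the 10, all below 6 CPM in replicate 2. In summed CPM the list was even over the iRGC libraries, 482, 473 and 467 CPM against 75.4, 120 and 74.3 CPM in cRGCs, and was led by evenly expressed genes, of which Adamts1, a secreted protease, gave 31.9% of the iRGC mean.

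Retinal progenitor markers were mostly higher in iRGCs too. Ccnd1, the most abundant progenitor gene per kilobase, was at 3362, 2649 and 2520 CPM in iRGCs and 277, 779 and 471 CPM in cRGCs, and in the cRGCs Notch3, Heyl, S1pr3 and Adamts1 also had their highest value in replicate 2, where Ccnd1 was highest. The order of the libraries was otherwise only partly shared. Within the cRGCs Ccnd1, Notch3 and Adamts1 were lowest in replicate 1, but Heyl and S1pr3 in replicate 3. Within the iRGCs Ccnd1, Heyl and Adamts1 were highest in replicate 1, Notch3 in replicate 2 and S1pr3 in replicate 3. The part of the progenitor signal in the higher levels of Notch3, Heyl, S1pr3 and Adamts1 was not tested.

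Smooth muscle genes were mixed. Of 21 in the list 16 passed the filter, with 9 called higher and 3 lower, beside 23.3% and 23.1% of all tested genes. The median log2 fold change of the 16 was 1.63. As a gene can pass the filter through the iRGCs alone, these counts are no support by themselves. Myl9, the regulatory light chain of smooth muscle myosin, was at 4.02, 8.59 and 23.5 CPM in iRGCs and 0.884, 1.28 and 0.097 CPM in cRGCs (4.00 ± 0.90, edgeR adjusted p = 0.00714). Srf, which encodes the transcription factor SRF, was at 236, 134 and 384 CPM against 82.5, 76.6 and 73.0 CPM (1.70 ± 0.32, edgeR adjusted p = 0.00272). Both were highest in iRGC replicate 3, as were Acta2 and Tagln, but Srf was lowest among the iRGCs in replicate 2 and Myl9 in replicate 1.

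Smtn, smoothelin, was at 44.0, 40.0 and 30.5 CPM in iRGCs and 4.15, 8.84 and 8.33 CPM in cRGCs (2.42 ± 0.30, edgeR adjusted p = 0.000408). Mylk, the kinase of the myosin light chain, was at 116, 89.4 and 76.1 CPM against 18.1, 20.2 and 21.8 CPM (2.22 ± 0.18, edgeR adjusted p = 0.000205). Cald1, the actin-binding caldesmon, was even over the iRGCs, at 72.2, 80.9 and 75.3 CPM against 17.0, 27.9 and 27.7 CPM (1.65 ± 0.20, edgeR adjusted p = 0.000349). None of these genes shared the excess of replicate 3.

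Synm, the intermediate filament protein synemin, went the other way, at 70.4, 112 and 157 CPM in iRGCs and 453, 485 and 694 CPM in cRGCs (-2.27 ± 0.28, edgeR adjusted p = 0.000437). Tpm1, a tropomyosin also made by neurons, was lower as well, at 120, 136 and 196 CPM against 245, 224 and 217 CPM (-0.60 ± 0.18, edgeR adjusted p = 0.0234). Narrower smooth muscle markers were low in both groups. Myh11, the smooth muscle myosin heavy chain, was at 0, 0.247 and 0.536 CPM in iRGCs and 0.538, 0.656 and 0.161 CPM in cRGCs. Cnn1, calponin, was at 0, 1.08 and 1.55 CPM against 0.692, 0.173 and 0 CPM, both overlapping between groups and not called. Myocd, the SRF coactivator of muscle, was at 0, 1.67 and 0.977 CPM in iRGCs and 2.15, 3.04 and 5.55 CPM in cRGCs, every iRGC library lower, and was called lower by limma voom but not by edgeR. Lmod1 had counts in iRGC replicate 3 alone, at 0.284 CPM, and Pln had none in any library.

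Other genes of the PDGF pathway went in both directions. Of 20 such genes 19 passed the filter, with 6 called higher and 6 lower, beside 23.3% and 23.1% of all tested genes, and a median log2 fold change of -0.03. Among the ligands, Pdgfc was at 12.6, 11.0 and 10.2 CPM in iRGCs and 1.00, 1.28 and 1.26 CPM in cRGCs (3.26 ± 0.33, edgeR adjusted p = 0.000232), and was even over the iRGC libraries. Pdgfd, the other ligand of PDGFRβ, was at 3.80, 5.16 and 3.00 CPM against 0.961, 0.759 and 0.323 CPM (2.55 ± 0.65, edgeR adjusted p = 0.0127). Pdgfa, the ligand that RGCs are known to make for the Pdgfra-bearing astrocytes, overlapped between groups, at 0.579, 4.39 and 7.57 CPM against 4.69, 7.63 and 3.36 CPM.

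Downstream of the receptors, Slc9a3r1, a scaffold that binds PDGFRβ, was at 33.9, 25.4 and 27.0 CPM in iRGCs and 3.00, 7.52 and 3.65 CPM in cRGCs (2.60 ± 0.35, edgeR adjusted p = 0.000567). Pik3r1, the regulatory subunit of PI3-kinase, was at 352, 275 and 328 CPM against 113, 134 and 106 CPM (1.44 ± 0.14, edgeR adjusted p = 0.000207). The adaptor Grb2, the Ras exchange factor Sos1, the phospholipase Plcg1, the kinases Pik3ca and Src and the co-receptor Lrp1 were lower in iRGCs, with log2 fold changes from -0.85 for Lrp1 to -0.28 for Sos1. The call of Sos1 (edgeR adjusted p = 0.0547) was lost without iRGC replicate 2 and without each of the cRGC libraries. Crk, the pathway gene with the highest level per kilobase, was at 215, 231 and 238 CPM against 208, 209 and 205 CPM and was not called (0.14 ± 0.09).

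Genes of endothelial cells, the source of PDGF-B in vessels, were mostly highest in the library where Rgs5 and Pdgfb were highest. Of 24 in the list 10 passed the filter and all 10 were called higher in iRGCs, beside 23.3% of all tested genes. The median log2 fold change of the 10 was 4.02 (also 4.02 with Adgrf5 at its lower bound, and 2.73 without iRGC replicate 2). Some of these 10 genes, such as Flt1, Cd34 and Adgrf5, were low in cRGCs and could pass the filter through the iRGCs alone. Pecam1, Esam and Adgrl4 had at most 9 counts in iRGC replicate 3, and passed with a cRGC library that had 21, 35 and 20 counts. The count of called genes is thus no support by itself here either. Their summed level was 557, 1022 and 446 CPM in iRGCs and 91.2, 113 and 74.9 CPM in cRGCs, and 19 of the 24 had their highest value in iRGC replicate 2. Pecam1, the adhesion molecule CD31, was at 9.65, 53.0 and 0.284 CPM in iRGCs and 0, 0.725 and 0 CPM in cRGCs (6.41 ± 1.79, edgeR adjusted p = 0.0194), and without iRGC replicate 2 its log2 fold change was 4.33 and it was not called. Flt1, a VEGF receptor, was at 17.9, 49.5 and 2.59 CPM against 1.15, 0.552 and 0.161 CPM (5.25 ± 1.06, edgeR adjusted p = 0.00425). Cd34, a surface sialomucin, was at 22.0, 75.1 and 0.505 CPM against 0.461, 0.138 and 0.194 CPM (6.95 ± 1.52, edgeR adjusted p = 0.00621).

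Adgrf5, an adhesion receptor of endothelium, was at 11.2, 50.8 and 0.378 CPM in iRGCs with no count in cRGCs, and replicate 2 held 81.5% of the iRGC level. With limma voom in place of edgeR, Pecam1, Flt1, Cd34 and Adgrf5 were not called. Cdh5, the cadherin of endothelial junctions, was at 15.2, 81.3 and 0.158 CPM with no count in cRGCs, and Tie1 at 2.70, 44.1 and 0.063 CPM, likewise with none. iRGC replicate 1 held counts of some genes of either class, such as Pecam1, Cdh5, Rgs5 and Pdgfrb, and none of others, such as endothelial Emcn and Sox18 and the pericyte genes Kcnj8, Foxc1 and Ednra. In iRGC replicate 3 Pecam1 and Cdh5 were near 0 while Tagln and Acta2 were highest. The part of endothelial RNA in the values of Pdgfb was not tested.

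Kdr, the main VEGF receptor of endothelium, did not share this pattern, at 366, 320 and 418 CPM in iRGCs and 83.7, 103 and 67.6 CPM in cRGCs (2.12 ± 0.17, edgeR adjusted p = 0.000205). It gave 54.5% of the list's mean level in iRGCs, was even over the iRGC libraries, and is also known from retinal progenitors. Cldn5 was at 26.0, 25.2 and 11.8 CPM in iRGCs and Mfsd2a at 9.91, 5.53 and 8.14 CPM, so neither was highest in replicate 2. Ly6c1 lay mainly in replicate 1, at 13.7, 0.062 and 0.315 CPM. With limma voom, Cldn5, Kdr and Mfsd2a were the endothelial genes called higher. Slco1a4, a transporter of mature brain capillaries, had no count in any library.

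**Figure D4:**
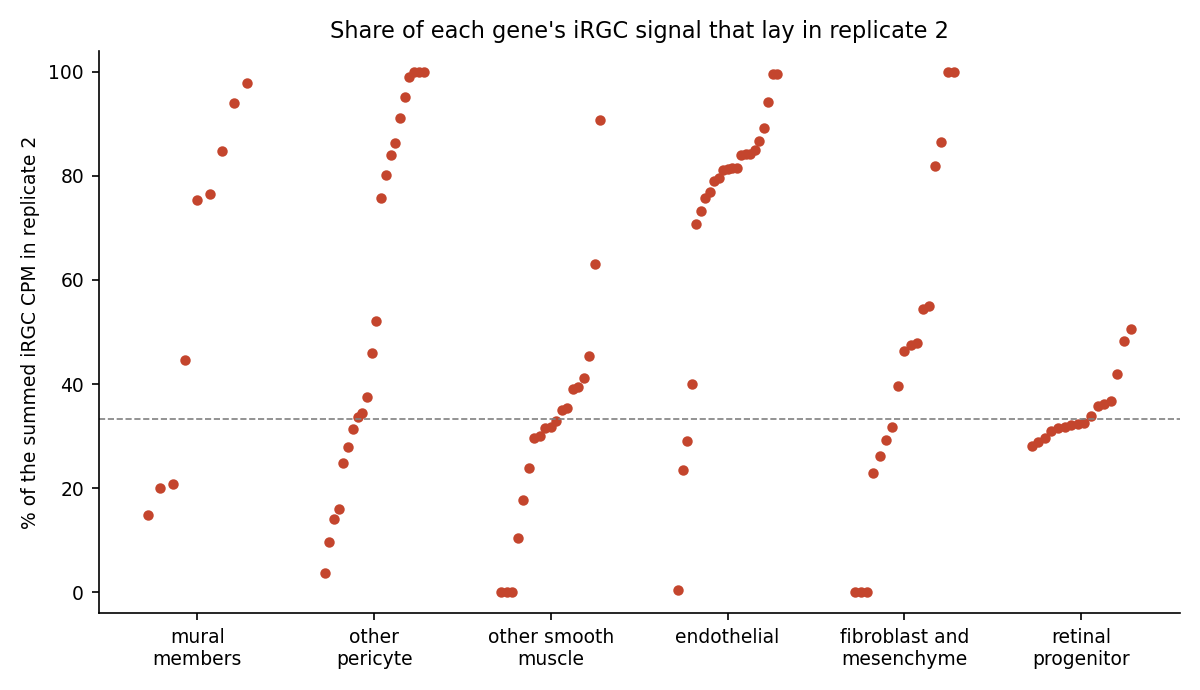
Each point is 1 gene, and the vertical axis gives the percentage of its summed iRGC CPM that lay in iRGC replicate 2, for 6 gene lists (genes without an iRGC count left out). The dashed line marks equal shares of the 3 libraries. The median was 75.3% for the 9 mural genes, 81.4% for endothelial and 32.5% for retinal progenitor genes, against 32.8% over the 22382 genes with an iRGC count.

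Fibroblast and mesenchyme genes were examined as another vessel-associated class that carries Pdgfra. Of 19 in the list 11 passed the filter, with 6 called higher and 2 lower, beside 23.3% and 23.1% of all tested genes. The median log2 fold change of the 11 was 1.84 (also with Prrx1, which had no cRGC count, at its lower bound). Prrx1 passed the filter through the iRGCs alone, so these counts are no support by themselves. The list summed to 216, 269 and 224 CPM in iRGCs and 152, 142 and 126 CPM in cRGCs. Fbln1, a matrix fibulin, was at 45.3, 67.9 and 58.2 CPM in iRGCs and 6.30, 15.6 and 8.87 CPM in cRGCs (2.47 ± 0.32, edgeR adjusted p = 0.000493). Col5a1 was at 46.3, 64.7 and 25.4 CPM against 8.07, 11.4 and 6.49 CPM (2.39 ± 0.35, edgeR adjusted p = 0.000861), and Col1a2, a chain of type I collagen, at 9.62, 16.4 and 3.78 CPM against 0.846, 2.31 and 3.13 CPM (2.24 ± 0.63, edgeR adjusted p = 0.0200). The 2 genes of the list that were called lower in iRGCs were Col6a2 and Mmp2. Col6a2 was at 19.4, 10.4 and 15.6 CPM against 34.5, 25.2 and 22.2 CPM, and Mmp2, a matrix protease, at 7.94, 18.5 and 12.1 CPM against 34.1, 25.8 and 31.5 CPM.

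Pcolce, which aids collagen maturation, was at 3.15, 7.88 and 3.44 CPM in iRGCs and 0.730, 0.518 and 1.19 CPM in cRGCs (2.56 ± 0.63, edgeR adjusted p = 0.0108). Col6a1 was at 53.4, 42.8 and 67.0 CPM against 58.1, 51.0 and 40.0 CPM and was not called (0.13 ± 0.20). Col3a1 had counts in iRGC replicate 2 alone, at 6.74 CPM. Dcn was at 0, 0 and 0.158 CPM in iRGCs with no count in cRGCs, and Lum had no count in any library.

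Erythroid markers were also high in iRGC replicate 2. The 9 erythroid genes found summed to 12.2, 94.7 and 15.8 CPM in iRGC replicates 1 to 3 and 0, 5.56 and 0.290 CPM in cRGC replicates 1 to 3. Of the 5 that passed the filter 4 were called higher, beside 23.3% of all tested genes. Alas2 had no cRGC count and passed the filter through the iRGCs alone. The most abundant erythroid gene, the β-globin gene Hbb-bs, was at 7.94, 50.0 and 7.88 CPM in iRGCs and 0, 2.42 and 0 CPM in cRGCs. Without iRGC replicate 2 Hbb-bs and Hbb-bt were not called. Of 14 microglial genes 10 passed the filter and 5 were called higher, beside 23.3% of all tested genes. The 14 summed to 25.0, 33.5 and 24.5 CPM against 1.96, 5.14 and 3.42 CPM, with C1qa the most abundant per kilobase at 1.74, 2.94 and 1.80 CPM against 0, 0.311 and 0.452 CPM. As genes near 0 in cRGCs can pass the filter through the iRGCs alone, the erythroid and microglial counts are no support by themselves. Erythroid genes thus shared the excess of iRGC replicate 2 with Rgs5, microglial genes far less so, and their part in the mural values was not tested. The 10 pigment epithelium genes summed to 8.49, 30.3 and 8.20 CPM in iRGCs and 5.73, 8.56 and 9.36 CPM in cRGCs, and 4 of the 10 were highest in iRGC replicate 2. Otx1 gave 0.450, 22.3 and 2.84 CPM of the iRGC sums, Pmel 0, 2.41 and 0.189 CPM and Tyr 0, 1.21 and 0 CPM. Ttr and Rpe65 had no count in iRGC replicate 2.

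**Figure D5:**
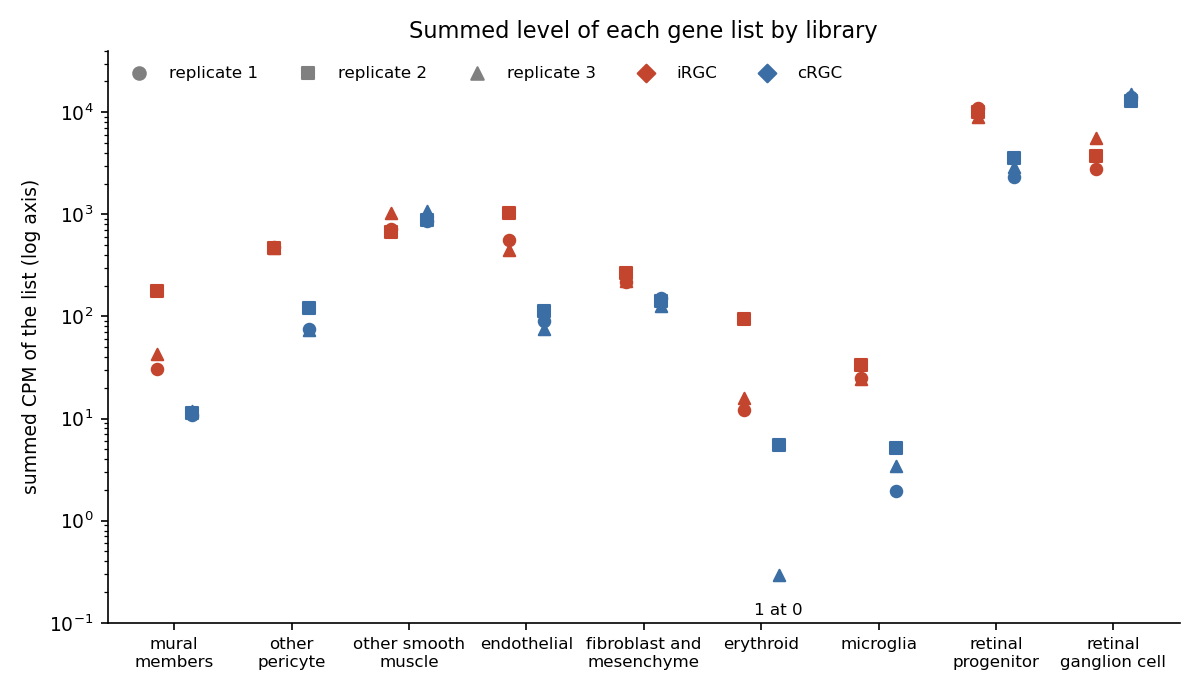
The summed CPM of each gene list (vertical axis, log scale) is plotted for iRGC (red) and cRGC (blue) libraries, with symbols for replicates 1 to 3 and a note where a sum was 0. The square of iRGC replicate 2 lay apart from the other iRGC libraries for the mural members (179 against 30.6 and 42.5 CPM) and endothelial genes (1022 against 557 and 446 CPM). It also lay apart for erythroid genes (94.7 against 12.2 and 15.8 CPM), but not for other pericyte or retinal progenitor genes.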

How the data were processed

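The authors aligned reads to mm10 with HISAT2 2.1.0 and counted them per Ensembl gene of GRCm38 with HTSeq 0.11.1, and deposited 1 table of raw counts per library, without normalization (versions as in the submitters' processing notes). The strand setting is not given in the sources used here. Tallies that name no gene (43.1% to 47.3% of all tallied alignments) stayed out of library sizes and tests. Symbols, positions and exon lengths came from GENCODE M21 (46574 of 47069 genes matched), and promoter windows from the RefSeq table for GRCm38.p6.

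Counts of the 6 libraries were fitted in R 4.3.3 with edgeR 4.0.16 (filterByExpr, TMM, quasi-likelihood test without a block, two-sided), and p-values were adjusted by Benjamini-Hochberg over the 15941 tested genes and called under 0.1. SEs of log2 fold changes come from the same fit. Folds of genes without a cRGC count were taken against 3 counts over the group, at 95% for counting intervals. With a biological coefficient of variation of 36.3% and 28193178 to 33638083 counts per library, 3 counts equal 0.0927 to 0.115 CPM. Fits were tested on simulated data.

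The members and the 13 other gene lists were chosen with earlier results of these data known. Named genes were all members, the gene of each list with the highest CPM per kilobase, in 5 lists the 4 called genes with the largest change at a mean of at least 1 CPM, and the 3 closest genes to each member with such a mean. Others named were chosen after their values were seen. Alternatives were DESeq2 1.42.0, limma 3.58.1 voom, other scaling factors, other filters and thresholds, a replicate block and each library left out. Figures were drawn with matplotlib 3.10.9.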

Additional observations from a re-analysis of the deposited data

How the results depend on the processing

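Of the 9 mural genes, the 4 called higher became 2 with limma voom (Pdgfrb and Tagln), 7 without a filter on low counts, 1 with at least 10 counts in every library, which Pdgfrb alone of the 4 met, and 3 to 6 with 1 library left out. DESeq2 also called 4, but another set, with Acta2 and Cspg4 beside Pdgfrb and Tagln. It gave neither a p-value nor an adjusted p for Rgs5, Pdgfb and Abcc9. In these genes iRGC replicate 2 held 84.7% (Pdgfb) to 97.7% (Abcc9) of the iRGC signal. The 8 other pericyte genes became 13 with DESeq2 and 13 without the filter. The 10 endothelial genes became 20 with DESeq2, 3 with limma voom, 23 without the filter, 4 with at least 10 counts in every library and 7 to 20 with 1 library left out. Over all genes, 3707 were called higher in the main fit, 4012 with DESeq2, 3687 with limma voom and 3574 without the filter. With at least 10 counts in every library 3659 were called higher, and with 1 library left out 3148 to 3563. The number of genes tested differs between the filters. Requiring an absolute log2 fold change above 1 left 1930 of all genes higher and 1758 lower. With 1 library left out, the log2 fold change ran from -0.056 (without iRGC replicate 3) to 0.28 for Col6a1 and from -0.37 (without iRGC replicate 2) to 2.55 for Otx1, and neither gene was called with all libraries. Without iRGC replicate 2, within the mural, pericyte, smooth muscle, endothelial and PDGF pathway lists, Pdgfb, Pecam1, Adgrl4, Egfl7, Esam, Vtn, Itga8 and Tpm2 (higher) and Atp13a5 and Sos1 (lower) lost their calls, and Ly6c1 (higher), Ldb3 and Stat5a (lower) were newly called. Of the genes named from outside these lists, C1qa, Hbb-bs, Hbb-bt, Sh2b3 and Dkk1 lost theirs. The causes of these changes were not tested, beyond the number of genes each filter admits.

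Replicate numbers are shared by both groups in the labels, but same-numbered libraries did not deviate together (r = -0.014, -0.045 and -0.067). With the replicate number as a block, 5 mural genes were called higher, with Cspg4 added, as were 8 other pericyte, 6 smooth muscle and 7 endothelial genes. Over all genes 3316 were called higher with the block, against 3707 without it. For single genes, 688 values under the alternatives kept their direction and side of the threshold, 29 fell short of it, 16 newly passed it and 2 reversed.

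Depth limits Acta2, Des and the cRGC values of Rgs5, Pdgfb and Abcc9, which rest on at most 10 counts per library there, so their folds are imprecise, and 3 libraries against 3 allow no exact permutation p below 0.1 for a single value.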

Other observations

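Astrocytes and oligodendrocyte precursors can also carry Pdgfra, and the latter Cspg4. Astrocyte genes summed to 734, 559 and 746 CPM in iRGCs and 261, 335 and 311 CPM in cRGCs, with 66.6% of the iRGC mean from Glul. Oligodendrocyte precursor genes summed to 199, 184 and 195 CPM in iRGCs and 74.9, 108 and 86.0 CPM in cRGCs, with 75.6% of the iRGC mean from Ptprz1. Of 9 astrocyte genes 5 passed the filter, with 4 called higher and 1 lower in iRGCs, beside 23.3% and 23.1% of all tested genes. Glul, glutamine synthetase, was at 477, 378 and 502 CPM in iRGCs and 230, 269 and 271 CPM in cRGCs (log2 fold change 0.82 ± 0.13 SE, edgeR adjusted p = 0.00142). Gfap, the intermediate filament of astrocytes, reached at most 0.189 CPM in any library. Of 8 oligodendrocyte precursor genes 5 passed the filter, with 2 called higher and 1 lower, beside the same shares of all tested genes. Sox10 and Gpr17 had no count in any library. Olig2, which retinal progenitors also express, was at 38.4, 35.1 and 38.7 CPM in iRGCs and 2.35, 10.4 and 5.78 CPM in cRGCs (2.60 ± 0.44, edgeR adjusted p = 0.00170). Lhfpl3 was the gene called lower, at 7.82, 4.82 and 11.8 CPM against 23.5, 23.2 and 14.5 CPM, and Bcan was not called, at 1.90, 0.371 and 0.158 CPM against 1.54, 2.21 and 1.13 CPM.

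Within the actin family the muscle actins were low and uneven. Actc1, cardiac actin, was at 0.901, 2.57 and 5.86 CPM in iRGCs and 0, 0.276 and 0.323 CPM in cRGCs and was highest in iRGC replicate 3, as Acta2 was (3.92 ± 1.22, edgeR adjusted p = 0.0313). Acta1, skeletal actin, was at 0, 0.340 and 1.64 CPM against 0.769, 2.00 and 1.84 CPM and was not called. The cytoplasmic actin Actb was at 1499, 1463 and 1819 CPM in iRGCs and 1769, 1689 and 1965 CPM in cRGCs and was not called.

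Among 10 pigment epithelium genes none of the 6 that passed the filter was called by edgeR, beside 46.4% of all tested genes called in either direction. Otx1 was at 0.450, 22.3 and 2.84 CPM in iRGCs and 1.77, 2.17 and 2.45 CPM in cRGCs, so that it too was highest in iRGC replicate 2. Rpe65 and Slc45a2 were at or near 0 in every library.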
